A study of Carassius auratus with 5 samples.

Results

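ATP synthase, the ADP/ATP carrier, the vacuolar proton pump and the sodium pump were followed in the telencephalon, the front part of the forebrain, of goldfish exposed to an aromatase inhibitor. The members are all cDNA clones on the array whose deposited name contains ATP synthase, vacuolar ATP, H+ transporting, V-ATPase, Na+/K+, sodium/potassium-transporting, ADP/ATP or ATP1A, whatever their measured values. There were 55 such clones among the 8099 clones on the array. Of these, 21 are named for subunits of mitochondrial ATP synthase, 2 for the ADP/ATP carrier, 21 for subunits of the vacuolar proton pump and 11 for subunits of the sodium pump of the plasma membrane. Several clones carry the name of the same subunit, and long cDNA probes can bind RNA of close relatives, which are frequent in the duplicated goldfish genome. A ratio is therefore that of a clone, and clones of 1 subunit are not independent measurements of a gene.

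The exposed fish were sexually mature females kept in water with fadrozole at 50 µg/L, and their telencephalon RNA came in 5 independent tissue groups, 1 for each array, labeled with Cy3. The control was RNA of unexposed females combined into 1 common pool, labeled with Cy5 and used on all 5 arrays. Age, length of exposure and number of fish in a group are not given in the sources used here. The comparison addresses which brain transcripts differ when aromatase, which turns androgens into estrogens, is inhibited.

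ATP synthase sits in the inner mitochondrial membrane, where protons flowing back through its F0 sector turn a rotor and the F1 sector makes ATP, which the ADP/ATP carrier exchanges for ADP from the cytosol. The vacuolar pump is built on the same plan and runs the other way: its V1 sector splits ATP and its V0 sector pumps protons into lysosomes, endosomes and synaptic vesicles, where the proton gradient drives the loading of transmitters. The sodium pump moves sodium out of and potassium into the cell, restores the gradients that neurons spend on firing, and is among the largest consumers of ATP in the brain.

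On each array the 2 spots of a clone were averaged into 1 log2 ratio of fadrozole over control. This was done after background correction and normalization within the array by loess, a smooth curve over brightness. A ratio of 0 is thus the typical ratio of clones of that brightness on the array, not equal raw intensity. A negative value is a signal in exposed fish that is lower relative to those clones. Values below are mean log2 ratios ± SD over the arrays, n = 5, and are differences, not levels. A clone was called when its mean differed from 0 at an adjusted p under 0.05 (limma's moderated test, two-sided, Benjamini-Hochberg over 8078 tested clones). All arrays had the same dye orientation, so dye and treatment cannot be told apart, and the test against a single pool leaves out the spread of the controls.

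Many of the pump clones were dim. Depending on the array, 80.0% to 92.7% of the members' control signals exceeded local background, against 15.5% to 64.5% of their fadrozole signals. Spots listed as empty also gave signal. The clones exceeding the 95th percentile of those empty spots in both channels on at least 3 arrays numbered 12 of 55, or 21.8%, beside 26.6% of all tested clones. By group these were 3 of the 21 ATP synthase clones, 1 of the 2 ADP/ATP carrier clones, 4 of the 21 vacuolar pump clones and 4 of the 11 sodium pump clones. In the control channel alone, 7 of the 11 sodium pump clones passed that level on at least 3 arrays. One lipid-binding protein clone (59e19) had no array with its fadrozole channel above local background and therefore has only a bound there, with no fold, although the group medians count its ratio. As a detection check, cell type markers were read too. All 6 clones of ependymin, a secreted protein abundant in fish forebrain, stood above local background in both channels on at least 3 arrays. So did 9 of 17 tested neuron marker clones, 14 of 23 for oligodendrocytes and 3 of 8 for radial glia and astroglia. Of other tissues, 17 of 45 muscle clones, 2 of 4 blood clones and 1 of 3 pituitary clones passed as well. The check thus shows detection and does not identify the tissue.

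**Figure D1:**
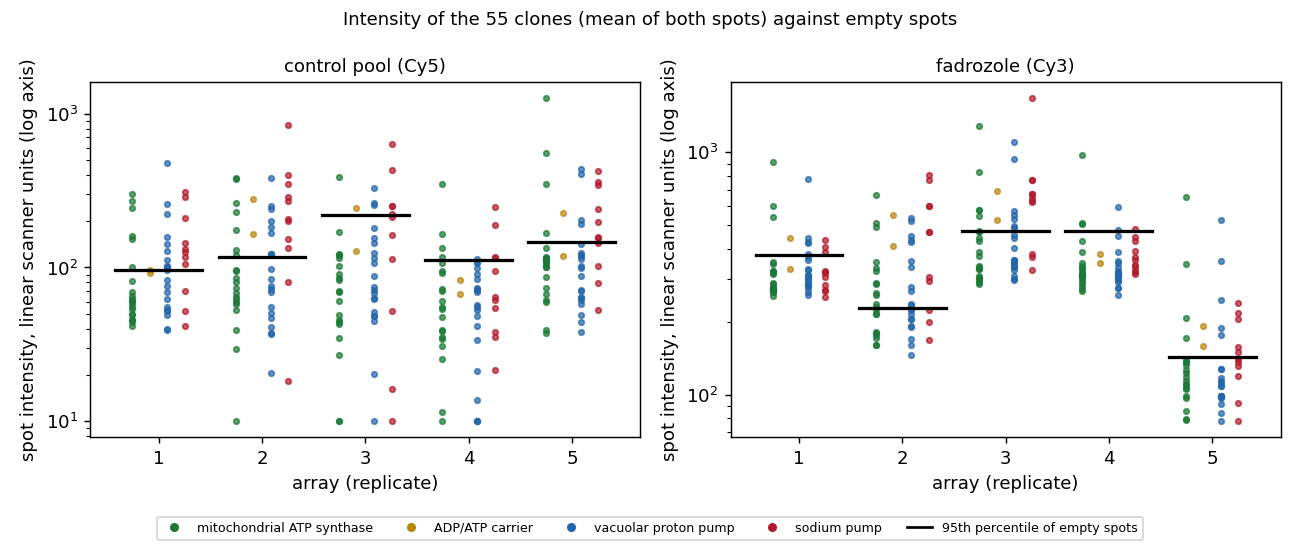
Intensity of each of the 55 clones on each array (linear scanner units on a log axis, mean of both spots; values below 10 are drawn at 10), with the control pool in the left panel and fadrozole in the right. The black line is the 95th percentile of empty spots on that array, and 6 to 33 of the 55 clones lie above it in the fadrozole panel and 9 to 27 in the control panel.

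One of the 55 clones was called: a sodium pump alpha 3 clone, 02m06, lower in exposed fish by -0.59 ± 0.13. No clone of ATP synthase, the ADP/ATP carrier or the vacuolar pump was called in either direction. Over the whole array 2.03% of the clones were called, 0.421% higher and 1.61% lower, so that 1 lower call among 55 is close to the background. At an unadjusted p under 0.05 there were 3 members higher and 3 lower, where 6.29% and 8.06% of all tested clones were. The same numbers, 3 and 3, had 1 sign on all 5 arrays, beside 7.14% and 7.65% of all clones. The median of the 55 was 0.02 and that of all tested clones was -0.003, with 31 members above 0 and 24 below.

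**Figure D2:**
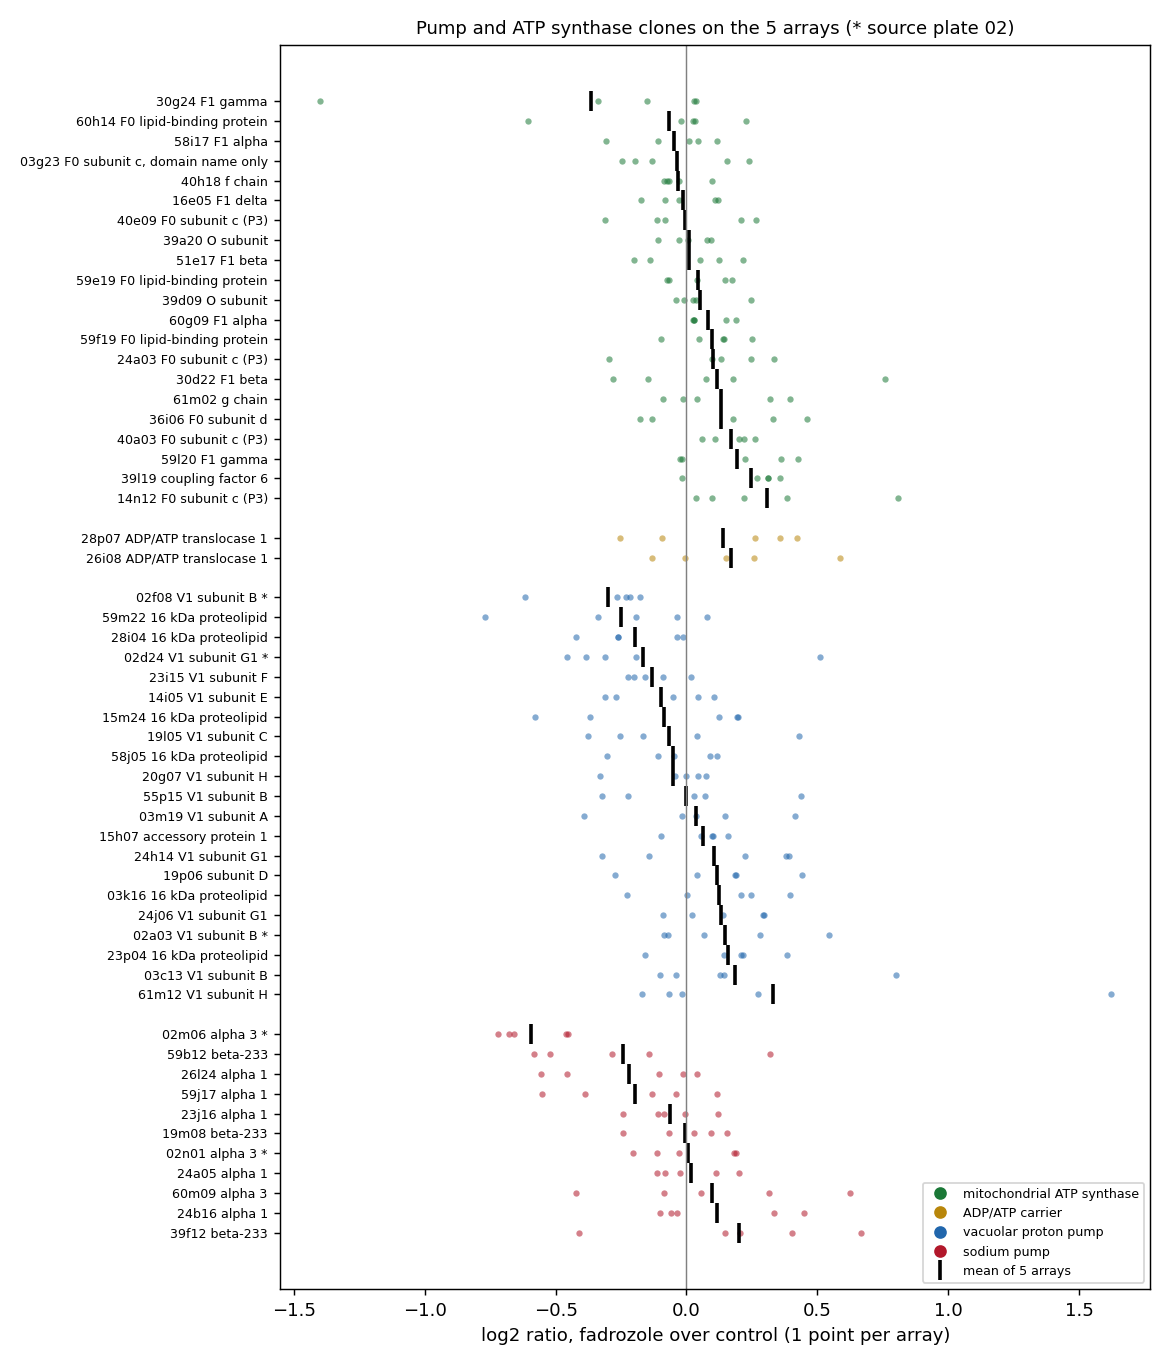
Log2 ratio of fadrozole over control for every clone, with 1 point for each of the 5 arrays and a black bar at their mean, in 4 colored groups ordered by mean. An asterisk marks the 5 clones whose names begin with 02, and the sodium pump alpha 3 clone 02m06 has the lowest mean, with -0.45 to -0.72 on the 5 arrays.

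The mitochondrial ATP synthase clones lay slightly above 0, with a median of 0.05 and an SD of 0.04 between the medians of the arrays. Their means ran from -0.36 to 0.31, 14 above 0 and 7 below, and the 14 include 59e19, which has only a bound. None of these clones came from source plates 02 or 04, as read from the first characters of clone names. Of all tested clones outside those plates 53.1% were above 0, with a median of 0.009. The 3 clones higher at an unadjusted p under 0.05 were coupling factor 6 (39l19) and c-subunit clones 14n12 and 40a03. None of the 3 passed the adjusted threshold, their adjusted p being 0.195, 0.242 and 0.329 by limma. Centered on their plates' medians they stood at 0.19, 0.30 and 0.13, with unadjusted p of 0.0458, 0.0306 and 0.106 by limma. Clone 40a03, at 0.17 ± 0.08, had its fadrozole channel above local background on only 1 array. It passed the empty-spot level on 0 arrays in either channel, and its 2 spots had the same sign on 2 arrays.

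The F0 sector holds the ring of c subunits that the protons turn. The 8 clones counted for it here carry only c-subunit names or the name of its domain, and had a median of 0.07. The d subunit clone, although named for the F0 complex, is counted with the stalk and small subunits below. The c-subunit clone 14n12 had log2 ratios of 0.39, 0.04, 0.22, 0.10 and 0.81 on replicates 1 to 5. Its average was above 0 on every array and highest on replicate 5, although its 2 spots had opposite signs on replicate 2 (-0.23 and 0.31) and replicate 4 (0.50 and -0.30), with a mean of 0.31 ± 0.31 and an unadjusted p of 0.0235 in limma. It was also the c-subunit clone with the strongest signal, above the empty-spot level in both channels on all 5 arrays, with fadrozole intensities between 544 and 1285.

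The 4 clones of the c-subunit precursor named P3 averaged 0.14 ± 0.09, from -0.01 for 40e09 to 0.31 for 14n12. Of the 3 clones named lipid-binding protein, another name for the c subunit, 60h14 stood at -0.07 ± 0.32 and 59f19 at 0.10 ± 0.13, while 59e19 has only the bound given above. An eighth clone, 03g23, carries only the name of a protein domain that the c subunits of ATP synthase and of the vacuolar pump share, and stood at -0.04 ± 0.22.

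The F1 sector carries the catalytic sites on its beta subunits, alternating with alpha around the turning gamma shaft. Its 7 clones had a median of 0.01. The lowest was the gamma clone 30g24, with 0.04, -0.15, -0.34, 0.03 and -1.40 on replicates 1 to 5. Replicate 5 alone brought its mean to -0.36 ± 0.60, and there the 2 spots read -2.79 and -0.01. The other gamma clone, 59l20, stood on the other side of 0 at 0.19 ± 0.21, so the gamma pair averaged -0.09 ± 0.38 and 0.07 without replicate 5. The 2 beta clones averaged 0.06 ± 0.26 and the 2 alpha clones 0.02 ± 0.11. Both means were below 0 with plain subtraction, without background subtraction and with the authors' values. A single delta clone stood at -0.01 ± 0.13.

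The stalk and small subunits join the sectors or hold the membrane part together, and their 6 clones had a median of 0.09. Coupling factor 6 (39l19), a piece of the outer stalk, had 0.31, 0.27, 0.36, 0.31 and -0.02 on replicates 1 to 5. Replicates 1 to 4 lay above replicate 5, but their likeness is one of averages: the 2 spots read 0.60 and 0.02 on replicate 1 and -0.03 and 0.74 on replicate 3. The mean was 0.25 ± 0.15, with the smallest unadjusted p among the mitochondrial clones, 0.0148 by limma. The fadrozole channel of this clone was above local background on only 2 arrays, and its control channel passed the empty-spot level on 0. The other clones of this set were the d subunit at 0.13 ± 0.28, the g chain at 0.13 ± 0.21, the f chain at -0.03 ± 0.07, and 2 clones of the O subunit, the top of the outer stalk, that averaged 0.03 ± 0.09.

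Both ADP/ATP carrier clones are named for translocase 1. Clone 26i08 had 0.59, 0.26, -0.13, -0.01 and 0.15 on replicates 1 to 5, and clone 28p07 had 0.36, 0.42, -0.09, 0.26 and -0.25. Both were higher in exposed fish on replicates 1 and 2 and slightly lower on replicate 3. Their means were 0.17 ± 0.28 and 0.14 ± 0.30, smaller than their spread, with adjusted p of 0.523 and 0.636 by limma.

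The vacuolar pump clones were centered on 0, with a median of -0.001, an SD of 0.06 between the medians of the arrays, and 10 clones above 0 and 11 below. The sign of that median has no weight, since it turned positive under several alternatives, among them print-tip loess (0.008) and scale normalization (0.01). Their means ran from -0.30 to 0.33. Both clones lower at an unadjusted p under 0.05, a V1 subunit B clone (02f08) and a 16 kDa proteolipid clone (28i04), missed the adjusted threshold, at adjusted p of 0.129 and 0.333 by limma.

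In the V1 sector, which splits ATP, 14 clones had a median of 0.02. Clone 02f08 of subunit B, a nucleotide-binding subunit, had -0.27, -0.22, -0.62, -0.18 and -0.23 on replicates 1 to 5. It was below 0 on every array and lowest on replicate 3, with a mean of -0.30 ± 0.18. Its name begins with 02, which is read here as its source plate, and the median of all 384 clones of that plate was -0.34. Centered on the plates' medians the same clone stood at 0.05.

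The other 3 subunit B clones stood near 0 or above it. Clone 02a03, which has the same gene name atp6v1bb and the same plate, stood at 0.15 ± 0.27, or 0.50 when centered on the plate's median. Its spots differed, reading -0.12 and 0.68 on replicate 1 and 0.12 and 0.97 on replicate 2. Over the arrays spot 1 averaged 0.004 and spot 2 averaged 0.29. Clone 55p15, named for the brain isoform, stood at -0.001 ± 0.30. Clone 03c13, named atp6v1ba, stood at 0.19 ± 0.36, of which most came from replicate 2 at 0.80, where its spots read 1.63 and -0.03.

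For subunit G1, part of a stalk of the pump, clone 02d24 (atp6v1g1) had -0.38, -0.19, -0.45, 0.51 and -0.31 on replicates 1 to 5. Replicate 4 opposed the other 4, and the mean was -0.17 ± 0.39. The G1 clones from another plate, 24h14 and 24j06, stood at 0.11 ± 0.32 and 0.13 ± 0.17.

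Subunit H regulates the coupling of V1 to the membrane part, and clone 61m12 for it averaged 0.33 ± 0.74, with its fadrozole channel above local background on only 1 array and its control channel above the empty-spot level on 0. Its values were -0.07, -0.02, -0.17, 0.27 and 1.62 on replicates 1 to 5. Replicate 5 made this mean, with spots of 0.73 and 2.52, and the other H clone, 20g07, stood at -0.05 ± 0.16. The single clones of subunits A, C, D, E and F, which complete the head and its stalks, ran from -0.13 for F to 0.12 for D.

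The V0 sector and the accessory protein had a median of -0.05 over 7 clones. Its 16 kDa proteolipid, the proton-carrying ring subunit that corresponds to subunit c of ATP synthase, was represented by 6 clones that averaged -0.05 ± 0.04 and ran from -0.25 to 0.16. That small average changed sign with no background subtraction (0.008). It stood at 0.05 among clones above background in both channels, but that filter kept only 58j05 and 23p04. The filter acts here through the fadrozole channel, so the 0.05 is not a sign change of the same clones. The proteolipid clone of smallest p, 28i04, had -0.26, -0.04, -0.01, -0.42 and -0.26, below 0 on all arrays but near it on replicates 2 and 3, with a mean of -0.20 ± 0.17. The proteolipid clone 23p04, above the empty-spot level in the control channel on all arrays and in the fadrozole channel on 4, stood at 0.16 ± 0.20. A clone of accessory protein 1 stood at 0.06 ± 0.10. Clone 54h23, named for the 116 kDa subunit a of the vacuolar pump, lies outside the word rule and is not counted here. Its fadrozole channel was above local background on 0 arrays, so it has only a bound, with no fold.

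The sodium pump clones ran from -0.59 to 0.20 around a median of -0.006, with 5 clones above 0 and 6 below. The catalytic alpha subunit comes in isoforms, of which alpha 3 is the one typical of neurons and alpha 1 occurs in most cells. The beta subunit escorts alpha to the membrane.

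The alpha 3 clone 02m06 (atp1a3b) had log2 ratios of -0.46, -0.68, -0.72, -0.66 and -0.45 on replicates 1 to 5. Every array was below 0 within a narrow span, which makes the normalized signal 1.51-fold lower in exposed fish. The unadjusted p was 3.12e-05 and the adjusted p 0.0152 by limma. Its scanner intensities, before background correction and normalization, were 389, 809, 766, 370 and 204 in the fadrozole channel. In the control channel they were 311, 842, 431, 189 and 345. The fadrozole channel was above the empty-spot level on 4 arrays and the control channel on 5. Before normalization the fadrozole intensity was the higher one on replicates 1, 3 and 4. On replicate 1 the median clone of the array read 299 in the fadrozole channel and 80 in the control channel. Of its 10 spots only 1 was not below 0, spot 1 of replicate 5 at 0.02, whose partner read -0.92.

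The call on 02m06 was lost without replicate 1 (adjusted p = 0.071), without replicate 2 (0.075) and without replicate 3 (0.0779), though the mean kept a size between -0.63 and -0.56 in those fits. It was lost with no background subtraction (0.056), with plain subtraction (0.105) and with the authors' values (0.07), where the means were -0.60, -0.60 and -0.45. It was also lost when each source plate was centered on its own median, where the mean was -0.24 and the adjusted p 0.302. On that plate 94 of 384 clones, or 24.5%, were called lower, and 02m06 stood at percentile 11.98 of the plate's clones. Outside plates 02 and 04, where 0.492% of 7310 clones were called, none of the members was. The part of the plate in the value of 02m06 was not tested apart from this centering.

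The other alpha 3 clones within the word rule did not follow it. Clone 02n01 carries the same gene name atp1a3b and comes from the same plate, and it had -0.20, 0.18, -0.03, 0.19 and -0.11 on replicates 1 to 5. These values scatter on both sides of 0, with a mean of 0.006 ± 0.18 at similar brightness (fadrozole intensities of 239 to 1671). Centered on the plate's median it stood at 0.36, at percentile 93.75 of the plate's clones, farther from that median than 02m06 and on the other side. Array by array, 02m06 was below 02n01 on 5 of 5 arrays, by a mean of -0.60 ± 0.28. The alpha 3 clone from plate 60, 60m09, had -0.09, 0.06, 0.31, 0.63 and -0.42, also on both sides of 0, with a mean of 0.10 ± 0.40. This clone was dim, with 0 arrays above the empty-spot level in either channel, and its mean turned to -0.11 with plain subtraction and -0.12 with the authors' values.

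Clones 02a16 and 02p17 on plate 02 are named Na,K-ATPase alpha subunit 3 and lie outside the word rule. They stood at -0.24 ± 0.22 and -0.32 ± 0.30, with adjusted p of 0.272 and 0.219 by limma. With them, the 4 alpha 3 clones of plate 02 averaged -0.29 ± 0.10, below 0 on 5 of 5 arrays and close to the plate's median of -0.34.

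Markers of neurons, the cells known for alpha 3, were chosen as a detection check, and their ratios are given as a description. They were below 0 on average, as were the alpha 3 clones of plate 02, while the alpha 3 clone 60m09 of plate 60 stood at 0.10 ± 0.40. The 17 tested neuron marker clones (SNAP-25, synuclein, synaptotagmin, synapsin and neurofilament names) averaged -0.15 ± 0.09, below 0 on 5 of 5 arrays. Of these, 2 were called lower, beside 1.61% of all tested clones. Those 2 were on plates 02 and 04 and averaged -0.65 ± 0.24. On these plates 127 of all 768 clones were called lower, and the median of the 768 was -0.28. The 15 neuron marker clones elsewhere averaged -0.08 ± 0.10, below 0 on 4 of 5 arrays, with 0 called, where the median of all clones elsewhere was 0.009. Blood markers averaged -0.13 ± 0.19 and ependymin -0.10 ± 0.27, each below 0 on 4 of 5 arrays. The averages were 0.02 for radial glia and astroglia, 0.02 for oligodendrocytes, 0.07 for muscle and 0.02 for pituitary. The part of the plates in the marker values was not tested. In bulk tissue fewer cells of a type and less RNA per cell cannot be told apart, and the part of neuron number in the alpha 3 values was not tested.

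**Figure D3:**
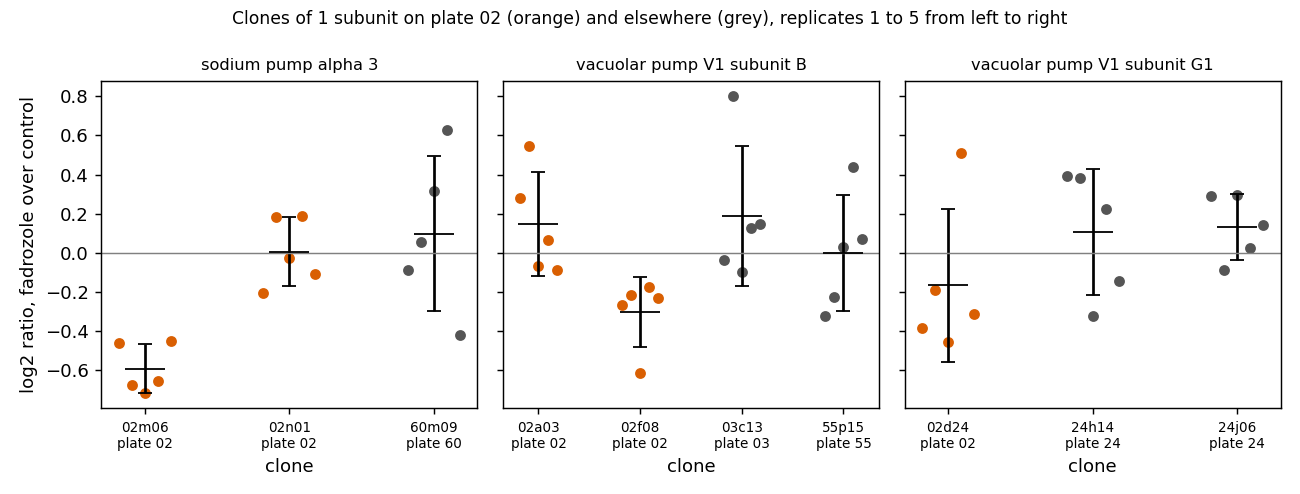
Log2 ratios on the 5 arrays (points, replicates 1 to 5 from left to right) with mean and SD (bars) for the clones of the 3 subunits found both on plate 02 (orange) and on other plates (grey). Within plate 02 the means of the alpha 3 clones 02m06 and 02n01 differ by -0.60, and those of the V1 subunit B clones 02f08 and 02a03 lie on either side of 0.

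These 3 subunits are the ones with clones on plate 02 and on other plates. The clones of plate 02 were lower than the rest by -0.39 ± 0.39 for alpha 3, -0.17 ± 0.22 for V1 subunit B and -0.29 ± 0.41 for V1 subunit G1. Each difference was below 0 on 4 of 5 arrays and no larger than its spread, and none was tested because the clones were known to differ. The 5 members on plate 02 had a median of -0.17 and the 50 elsewhere a median of 0.04.

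The 5 alpha 1 clones averaged -0.07 ± 0.10, and their means ran from -0.22 to 0.12. The lowest, 26l24, had 0.04, -0.01, -0.46, -0.10 and -0.56 on replicates 1 to 5. It was low on replicates 3 and 5 and near 0 on the rest, averaging -0.22 ± 0.27 (adjusted p = 0.402 by limma). Clone 24b16, which was above local background in both channels on all arrays, stood at 0.12 ± 0.25, but its fadrozole channel passed the empty-spot level on only 2 arrays. Clone 23j16, alone among the alpha 1 clones above that level in both channels on at least 3 arrays, stood at -0.06 ± 0.14. It was below 0 on 4 arrays. Clone 59j17 stood at -0.20 ± 0.27 and clone 24a05 at 0.02 ± 0.13.

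The beta subunit was represented by 3 clones named beta-233. Clone 59b12 had -0.14, 0.32, -0.28, -0.58 and -0.52 on replicates 1 to 5, low on replicates 4 and 5 and high on replicate 2, with a mean of -0.24 ± 0.36. Its spots had opposite signs on replicate 5 (-1.24 and 0.20) and replicate 1 (-0.40 and 0.11). Clone 39f12 stood at 0.20 ± 0.40 and clone 19m08 at -0.006 ± 0.16. The 3 clones thus spread over both sides of 0, and their average was -0.02, turning positive without background subtraction (0.05), with plain subtraction (0.11) and with the authors' values (0.06).

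**Figure D4:**
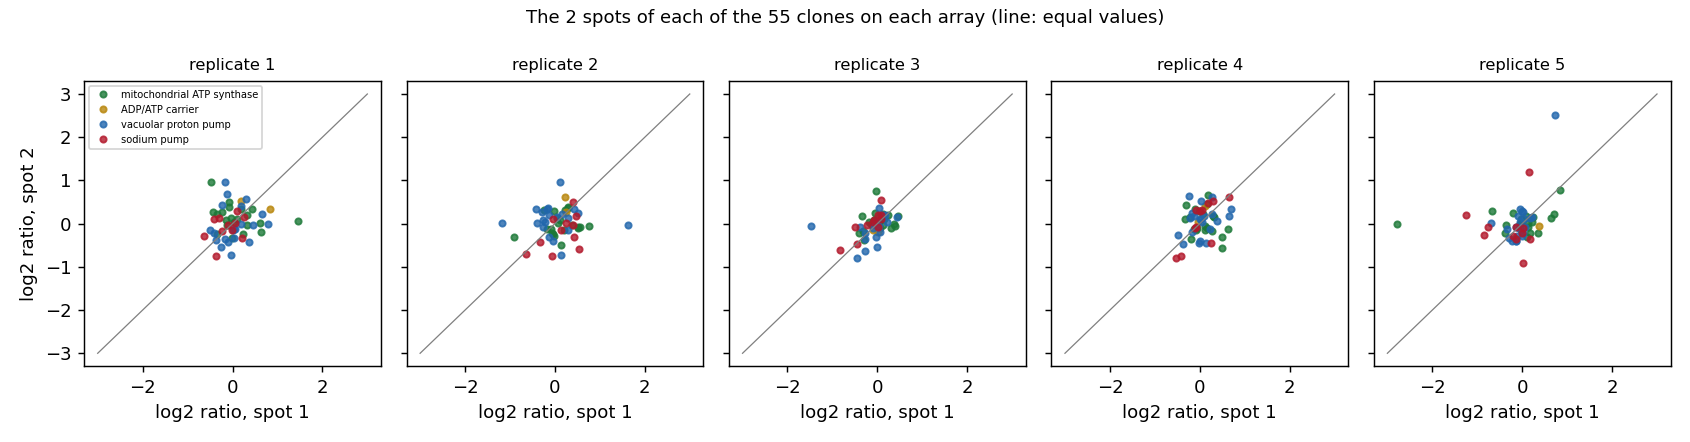
Log2 ratio of fadrozole over control at spot 1 (horizontal) and spot 2 (vertical) of each clone, 1 panel per array, colored by group, with a line of equal values. The correlation of the spots over the 55 clones ran from 0.09 on replicate 1 to 0.42 on replicate 3, and the points far from the line on replicate 5 include the gamma clone 30g24 (-2.79 and -0.01) and the V1 subunit H clone 61m12 (0.73 and 2.52).

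The 2 spots of a clone agreed only loosely, with Pearson correlations over the 55 clones of 0.09, 0.12, 0.42, 0.25 and 0.25 on replicates 1 to 5, given as a description since the clones share arrays and dimness. The median absolute difference between the spots was 0.15 to 0.32 on the log2 scale. SDs over the arrays ran from 0.07 to 0.74, with a median of 0.22 beside 0.20 for all tested clones. The 95% confidence interval of a mean reached 0.21 on either side at the median, 0.16 at the narrowest and 0.52 at the widest. For 52 of the 55 clones the whole interval of the measured ratio lay within 1.5-fold of a normalized log2 ratio of 0. For all 55 it lay within 2-fold. Of the 55 clones, 36 passed the empty-spot level on at least 3 arrays in neither channel. For such dim clones a narrow interval describes the measured ratio and does not exclude a larger change in RNA. The reach of an interval is not a limit of detection, and the smallest change detectable with 5 arrays was not worked out.

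Other genes that spend, buffer or feed the same ATP were counted from word lists. Among 18 calcium pump clones 0 were called in either direction at the adjusted threshold of limma, with 0 higher and 1 lower at an unadjusted p under 0.05 and a median of -0.05. That one, a plasma membrane calcium pump 2 clone (52l23), stood at -0.24 ± 0.18, and other clones of that name ran from -0.18 (52d22) to 0.13 (54b15). Of 30 clones of creatine and adenylate kinases, which buffer ATP, 0 were called by limma, with 2 higher and 3 lower at the unadjusted threshold and a median of 0.03. All 3 lower ones were brain creatine kinase clones on plate 02. The 24 clones outside plates 02 and 04 gave 2 higher and 0 lower, where all 7310 tested clones outside those plates gave 502 higher and 223 lower. Over all tested clones 2.03% were called, and 6.29% were higher and 8.06% lower at the unadjusted threshold.

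The kinase clone of smallest p was a brain creatine kinase clone on plate 02 (ckb, 02n10), with -1.06, -0.41, -1.003, -0.21 and -0.39 on replicates 1 to 5. All arrays were below 0 with replicates 1 and 3 lowest, and its mean of -0.61 ± 0.39 had an adjusted p of 0.0522 by limma. The 6 brain creatine kinase clones of plate 02 averaged -0.23 ± 0.16 and the 6 on other plates 0.03 ± 0.11.

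Of 14 clones on a list of mitochondrial channels, carriers and the ATPase inhibitor 0 were called by limma, with 1 higher and 0 lower at an unadjusted p under 0.05 and a median of 0.02. Over all tested clones 6.29% were higher and 8.06% lower at that unadjusted threshold. The lowest p belonged to the anion channel VDAC3 (25n05) at 0.22 ± 0.17. The clone similar to the mitochondrial ATPase inhibitor (18e07), which keeps ATP synthase from running backward, stood at -0.08 ± 0.09. A list of sodium exchangers, pump regulators and carbonic anhydrase matched 5 clones, all of them FXYD proteins, which are small regulators of ion transport, or carbonic anhydrases, and 0 sodium exchangers. It had 0 calls by limma, 0 at an unadjusted p under 0.05 too, and a median of 0.08. The FXYD6 clone 59d05 stood at 0.13 ± 0.17, and another FXYD6 clone, 24g06, at -0.06 ± 0.12. Clone 24g06 passed the empty-spot level on 3 arrays in the fadrozole channel and 5 in the control channel, against 1 and 1 for 59d05.

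A word list for the respiratory chain, which builds the proton gradient that ATP synthase uses, matched 59 clones. It also caught cytochrome b561 (24l14), a heme lyase (22f21) and an oxidase assembly protein (24i08), which are not subunits of the chain. Of the 59 clones, 1 was called higher and 0 lower, around a median of 0.02, where 0.421% of all tested clones were called higher. At an unadjusted p under 0.05 there were 8 higher and 4 lower, beside 6.29% and 8.06% of all tested clones, and 7 were above 0 on all 5 arrays, beside 7.14%. The lower ones include 02f19 and 02j18 of plate 02. The 57 clones outside plates 02 and 04 gave 8 higher and 2 lower, where all 7310 tested clones there gave 502 and 223. The called clone (40p15), named for a small subunit of the ubiquinol-cytochrome c reductase complex, had 0.77, 0.14, 0.37, 0.55 and 0.95 on replicates 1 to 5. It was above 0 on every array, averaging 0.56 ± 0.32, and its adjusted p by limma was 0.0494, which ran from 0.0149 to 0.183 over the alternatives. Other clones of the same name were not called. Clones 40m01 and 40n01 from the same plate stood at 0.46 ± 0.47 and 0.30 ± 0.28, and 60a03 from plate 60 at 0.09 ± 0.21.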

How the data were processed

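The 5 arrays compared female telencephalon RNA with a control pool in 2 dyes. Per the file headers, the deposited intensity values are linear scanner units per spot and channel, not background subtracted. A second table, deposited by the authors, holds processed values taken here as log2, with no base or scale given. Their row numbers did not line up with the spots. The spot order used for them was found by trying orders against the scanner values, and the one kept gave correlations of -0.996 to -0.9999 across spots, so their sign was turned to fadrozole over control.

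In limma 3.58.1 (R 4.3.3, statmod 1.5.0), background was corrected by normexp (offset 50) and each array normalized by loess (span 0.3). Control and empty spots, and spots the scanner software ignored (0 to 29 per array, 0 of them members), had no weight. Tested clones passed local background plus 2 of its SDs in 1 or both channels, at 0.5 or more of their spots, on 3 or more arrays, which held for 8078 of 8099 clones and all 55 members. Residual degrees of freedom were 4, and prior ones 5.24. The number of arrays limits the precision. Array weights, background, normalization, filter, source plate, quantification day (replicate 1 apart from the other 4) and left-out arrays were varied. The pipeline was tested on simulated data.

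Members and lists were chosen with earlier results of these data known. Clones named were the called ones, those of smallest p and largest ratio in each group, and subunits with clones on plate 02 and elsewhere; other clones were added after their values were seen, to account for every subunit. The written group rule would have put the clone atp6v1g1 with ATP synthase; it was counted as vacuolar by its V1 name. Source plates were read from the first characters of clone names. Clone sequences and genome positions were not used here.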

Additional observations from a re-analysis of the deposited data

Results flagged for a closer look

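In 6 of the 28 clones and medians examined, 1 array stood far from the other 4. Chance singles out about 1 in 20 of values taken without regard to their size, and this rate cannot be set against these clones, many of which were named for a large ratio or a small p. For 3 of them the array was replicate 5: coupling factor 6 (39l19) read -0.018 there against 0.27 to 0.36 elsewhere, the ATP synthase gamma clone 30g24 read -1.40 against -0.34 to 0.04, and the V1 subunit H clone 61m12 read 1.62 against -0.17 to 0.27. The V1 subunit B clone 02f08 read -0.62 on replicate 3, where the others were between -0.27 and -0.18. The V1 subunit B clone 03c13 read 0.80 on replicate 2 against -0.10 to 0.15. The V1 subunit G1 clone 02d24 read 0.51 on replicate 4 against -0.45 to -0.19.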

How the results depend on the processing

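No paired analysis was possible because the arrays form 1 group against a common pool and share no replicate numbers with another group. Of 1009 values of member clones under the alternatives, 928 kept their direction and side of the threshold, 74 took the other direction, 7 lost the call of 02m06 and 0 were newly called. One direction held in all settings for 25 of the 55 clones. The call of 02m06 held in 11 of its 18 alternatives, with adjusted p (limma) from 0.0044 to 0.302.

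Over the whole array, calls fell from 34 higher and 130 lower to 0 and 0 with no background subtraction, plain subtraction, the authors' values, each plate centered, or plates 02 and 04 left out, and in these 5 settings 0 members were lower. Scale normalization left 18 higher, and requiring both channels above background gave 133 higher and 214 lower, with an ATP synthase median of 0.11. That last filter acts on the members mainly through the fadrozole channel, which passed local background on 3 or more arrays in 25 of 55. Its counts and median thus cover fewer clones, kept partly for their fadrozole signal, and cannot be read as a shift of the whole group. Leaving out 1 array gave 0 to 21 higher and 0 to 153 lower calls over the array, with 0 members higher and 0 to 1 lower. Without replicates 1, 2 or 3 the member call was lost. The causes of these changes were not tested.

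Directions turned as follows: 02d24 to 0.027 and 02n01 to -0.030 with no background subtraction, 24h14 to -0.10 and 60m09 to -0.11 with plain subtraction, 24h14 to -0.039, 03c13 to -0.041 and 60m09 to -0.12 with the authors' values, 02n01 to -0.039 with print-tip loess, and 02f08 to 0.048 and 02d24 to 0.18 with plates centered. Clone 55p15, at -0.001, turned to 0.048 with median centering, 0.010 with scale normalization, 0.0027 with array weights and 0.0024 with the day block. With 1 array left out 55p15 ran from -0.11 to 0.079, 02n01 from -0.040 to 0.058 and 60m09 from -0.034 to 0.23. The medians were not computed for the variance model and the day block, which leave the ratios nearly as they are.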
